A study of Homo sapiens with 4 samples.

Results

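The genes described here are the ZNF genes on the short arm of chromosome 19, that is, all rows of the count table with a symbol made of ZNF and a number whose gene begins below position 25000000 of chromosome 19 in hg38. They numbered 86 of 19901 protein-coding genes. All of these genes were measured in HCT116, a human colon cancer cell line, with a degradation tag fused to KAP1 (KAP1dTAG, clone D5), so that both the control and the depleted samples carry the tagged allele and come from 1 clone. Cells received DMSO, the vehicle, or dTAG, the ligand that brings the tagged protein to degradation, for 8 h, with 2 libraries per condition, and nascent RNA was labeled with 500 μM 4-thiouridine for 10 min and sequenced (TT-Seq). The comparison asks which of these genes changed in nascent transcription upon acute KAP1 depletion.

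ZNF genes of this kind encode C2H2 zinc finger proteins, which read DNA with an array of small fingers. Many carry a KRAB domain at their N-terminus, which binds KAP1 (TRIM28) and through it recruits the H3K9 methyltransferase SETDB1 and HP1 proteins to silence transposable elements. The family grew by tandem duplication into dense clusters on chromosome 19, so that neighbors are often close paralogs, and KAP1 is known to occupy the 3' ends of many of these genes.

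Gene counts summed to between 93105627 and 102314741 per library. A gene was tested where it had at least 50 counts in all 4 libraries, which 12612 genes did. Of 8 epithelial markers, such as EPCAM and KRT8, all 8 were tested, and their summed level was 1254 to 1307 CPM, counts scaled to library size, with DMSO and 1160 to 1264 with dTAG. Of the 8, 1 was called lower, ELF3, an epithelial transcription factor, with 54.7 and 68.1 CPM against 47.1 and 45.6. Of 10 markers of other cell types, 2 were tested and 1 was at 0, with a summed level of 8.27 to 8.33 CPM with DMSO and of 7.39 with dTAG, and their part in the results below was not tested.

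The 86 genes fell into 6 blocks when a new block was begun at each gap of more than 500000 bases. Block 1 held 5 genes (chr19:2819873-2944971), block 2 held 2 (chr19:7069443-7521026), block 3 held 14 (chr19:8509677-9793180), block 4 held 27 (chr19:11483426-12640098), block 5 held ZNF333 alone (chr19:14689800-14733746) and block 6 held 37 (chr19:19668795-24129961). The 3 genes called higher with dTAG, ZNF266, ZNF121 and ZNF562, lie close to each other on the minus strand of block 3. The promoters of this stretch are shown first because they share letters that were not found in the promoters of the other genes of the set with a sequence.

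The following stretches run from 100 bases before to 10 bases after the annotated start, 5′ to 3′ on the minus strand, from RefSeq for GRCh38.p14. Capitals mark TGACGTCA, the full cAMP response element, which CREB and ATF proteins bind. They are given in genome order, at chr19:9435564-9435673 for ZNF266, chr19:9538636-9538745 for ZNF426, chr19:9584495-9584604 for ZNF121, chr19:9621223-9621332 for ZNF561 and chr19:9675091-9675200 for ZNF562.
ZNF266: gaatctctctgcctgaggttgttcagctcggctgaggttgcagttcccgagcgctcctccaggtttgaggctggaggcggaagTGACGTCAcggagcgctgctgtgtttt
ZNF426: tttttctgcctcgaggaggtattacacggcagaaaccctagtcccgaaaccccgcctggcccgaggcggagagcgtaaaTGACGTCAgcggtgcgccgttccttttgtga
ZNF121: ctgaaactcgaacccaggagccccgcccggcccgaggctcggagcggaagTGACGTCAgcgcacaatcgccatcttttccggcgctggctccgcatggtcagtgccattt
ZNF561: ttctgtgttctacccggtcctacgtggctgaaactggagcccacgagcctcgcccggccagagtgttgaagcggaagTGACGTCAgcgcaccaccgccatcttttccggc
ZNF562: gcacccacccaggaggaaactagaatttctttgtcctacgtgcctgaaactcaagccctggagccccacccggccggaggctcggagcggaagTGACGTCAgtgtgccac

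Promoter windows, from 250 bases before to 50 after an annotated start, were given for 74 of the 86 genes, some with several starts, which made 79 windows. TGACGTCA reads the same on both strands. It was chosen after the promoters and the changes had been seen, and its matches are a description, not binding sites. It was in 5 of the 79 windows, all in block 3, and in 1.85% of all 35116 windows of the table. Among windows of tested genes only, it was in 9.76% of those of members and 2.76% of all. In ZNF266, ZNF426, ZNF121 and ZNF561, 9, 13, 42 and 15 bases lay between it and the RefSeq start. In ZNF562 its last base was the first base of the RefSeq transcript. The counted gene ZNF561 begins upstream of its RefSeq start, at position 9621399, so that there the motif lies inside the counted gene. In ZNF266, ZNF121, ZNF561 and ZNF562 TGACGTCA directly followed CGGAAG, the core of sites for ETS factors, and in ZNF426 it did not. The pair, in this order on either strand, was in 8 of the 35116 windows, of which these 4 genes gave 4 and KYAT1, KYAT1-SPOUT1, MAGOH-DT and MAP3K13 the rest. The stretches shown, TGACGTCA included, were 55.5% to 67.3% identical to each other by global alignment. Unrelated promoters were not compared in this way, so that this range has no background.

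Other short motifs were also searched. On either strand, CCAAT, the box bound by NF-Y, was in 79.7% of the 79 windows against 34.6% of all windows, but in 30.8% of the 13 windows of block 3. GGGCGG, the core of sites for SP1, was in 79.7% against 45.0%, CGGAAG in 55.7% against 19.5%, and TATAAA, the TATA box, in 3.80% against 11.5%. Among windows of tested genes only, members and all genes were closer for GGGCGG, with 70.7% against 65.8%, and for TATAAA, with 4.88% against 6.37%. There CGGAAG was in 56.1% against 28.9% and CCAAT in 70.7% against 34.5%. GCCATCTT, a site of YY1, was in ZNF121, ZNF561 and ZNF562 of block 3 and in ZNF675 of block 6.

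Counts of the family fell into 2 ranges. Of the 86 genes, 40 (46.5%) were tested, against 63.4% of all genes, and their counts ranged from 204 to 31130. The other 46 were under the minimum, and 43 of them had at most 20 counts in every library. The exceptions were ZNF556, with up to 22 counts, ZNF491, with up to 31, and ZNF426, with up to 73, so that no gene lay between 73 and 204 counts. By block, 4 of 5, 2 of 2, 10 of 14, 8 of 27, 1 of 1 and 15 of 37 genes were tested.

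**Figure D1:**
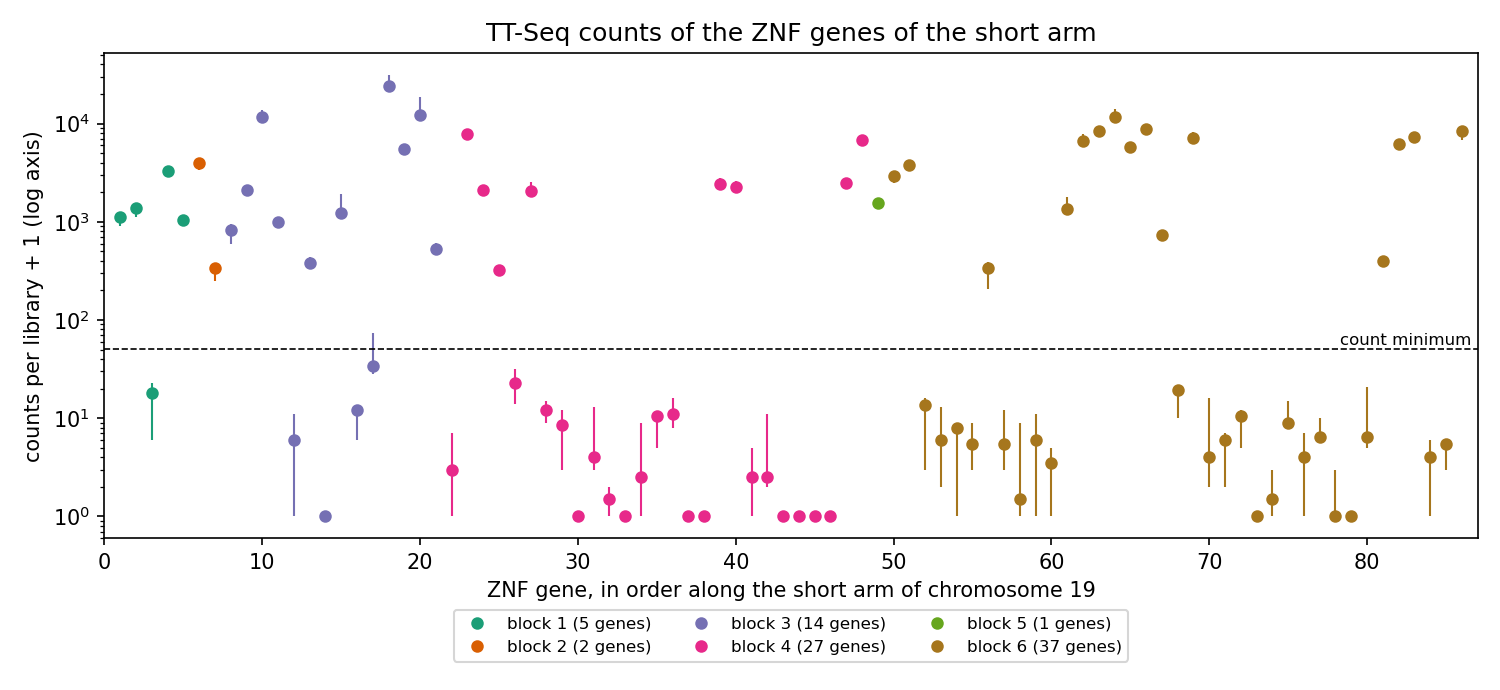
Counts per library plus 1 on a log axis for the 86 ZNF genes, in their order along the short arm and colored by block. Points are means of the 2 DMSO libraries, lines run from the lowest to the highest of the 4 libraries, and the dashed line is the count minimum of 50; the 40 tested genes lie at 204 counts or more and the 46 others at 73 or fewer.

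Genes with few counts lay next to each other. In block 4, 11 neighbors from ZNF439 to ZNF625 (chr19:11848725-12156729) had at most 15 counts, and 6 from ZNF563 to ZNF564 (chr19:12317476-12551542) had at most 10. In block 6, 11 neighbors from ZNF43 to ZNF730 (chr19:21804948-23147219) had at most 20 counts, and runs of 4 on either side of ZNF90 had at most 15 and 11. Between these runs of block 6 stood well transcribed genes, such as ZNF431 with 11115 to 14061 counts.

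Part of the absence of counts goes with overlap in the annotation. A count of 0 in all 4 libraries was found for 11 genes, which allows up to 3 counts per library or 0.0299 to 0.0332 CPM, and 9 of them were covered to at least 90% by other genes of the table, as ZNF177 is by the readthrough gene ZNF559-ZNF177. The deposited counts do not show how reads shared by overlapping genes were treated, so these genes, and ZNF791 and ZNF724, which were covered as fully but were tested, are uncertain, as are ZNF559-ZNF177 and ZNF358, covered to 79.7% and 75.5%. Of the 46 genes under the minimum, however, 31 were covered to less than 10%, including ZNF676 and ZNF728, which were at 0. The share of 50-base windows that recur elsewhere on chromosome 19 had a median of 5.37% in the 46 genes and of 4.41% in the 40. ZNF799 and ZNF443, neighbors whose proteins are 93.2% identical, had the highest values named here, with 34.3% and 33.4%, and reads of such copies may be split or lost.

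Among the tested genes, levels per length of gene differed widely. ZNF121, a zinc finger protein with 9 fingers and no match to the KRAB pattern searched, had the highest level, with 9.87 and 10.2 CPM per kb in the DMSO libraries. ZNF317, with 13 fingers, followed with 5.02 and 5.20, and ZNF738 with 4.17 and 4.51. ZNF562 had 3.65 and 3.75 CPM per kb and ZNF561 3.11 and 3.45. The DMSO values of these 5 genes did not overlap between neighbors in this order. At the other end, ZNF559-ZNF177 had 0.0658 ± 0.0124 CPM per kb (SD, n = 2), ZNF90 0.0688 ± 0.0150 and ZNF846 0.130 ± 0.0121, and the first pair of these did not differ beyond its spread. The median over the 40 genes was 0.897 CPM per kb, against 1.06 over all tested genes.

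Upon KAP1 depletion, 3 of the 40 tested genes rose (7.50%) and 0 fell, with edgeR's quasi-likelihood test and Benjamini-Hochberg adjustment over the 12612 genes. In RNA from whole cultures, fewer transcribing cells and less RNA per cell cannot be told apart. Over all tested genes, 7.1% were called in either direction, 3.44% higher and 3.66% lower. At an unadjusted p under 0.05 (edgeR's quasi-likelihood test), 9 of the 40 were higher and 1, ZNF90, was lower. Over all 12612 tested genes, 1555 were higher and 1800 lower at this level, together 26.6%. DESeq2 called 6 higher, beside a background of 5.7%, and 0 lower, beside 4.8%.

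ZNF266, a KRAB zinc finger gene with 12 fingers at chr19:9412597-9435578, had the largest rise among the 40 tested genes. It had 1217 and 1249 counts with DMSO and 1883 and 1923 with dTAG, or 12.3 and 12.5 against 18.8 and 21.3 CPM. Both dTAG values were above both DMSO values, with a log2 fold change of 0.69 ± 0.12 (SE) and an adjusted p of 0.00137 (edgeR's quasi-likelihood test), 1.62-fold. ZNF266 held rank 47 among all tested genes by fold change. Without dTAG replicate 2 its log2 fold change was 0.60 and it was no longer called, with an adjusted p of 0.219 in the same edgeR test.

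ZNF562, at chr19:9641807-9675086 with 6 fingers and a KRAB match, had 12030 and 12452 counts with DMSO and 18825 and 16974 with dTAG. In CPM these were 121 and 125 against 188 and 188, so that the groups stood far apart beside their spread. The log2 fold change was 0.61 ± 0.084 (SE) with an adjusted p of 0.000129 (edgeR's quasi-likelihood test), 1.53-fold. ZNF266 and ZNF562 were thus among the 0.507% of tested genes that were called higher by at least 1.5-fold.

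ZNF121, at chr19:9560352-9584533, had 23656 and 24510 counts with DMSO and 31130 and 28876 with dTAG, or 239 and 246 against 311 and 320 CPM. The groups did not overlap, and the log2 fold change was 0.38 ± 0.090 (SE) with an adjusted p of 0.0155 (edgeR's quasi-likelihood test). In the same edgeR test the adjusted p was 0.370 without dTAG replicate 1, 0.823 without dTAG replicate 2 and 0.121 with a replicate block. With ERCC totals as library sizes the log2 fold changes were larger, 1.35 for ZNF266, 1.26 for ZNF562 and 1.03 for ZNF121, but 0 of the 12612 genes were called and each of the 3 had an adjusted p of 0.472 in the same edgeR test.

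Between ZNF121 and ZNF562 lies ZNF561 (chr19:9604679-9621399), whose protein is 84.5% identical to that of ZNF562 and whose promoter holds the same pair of motifs. It had 5159 and 5760 counts with DMSO and 6181 and 5263 with dTAG, or 52.1 and 57.7 against 61.7 and 58.3 CPM. The dTAG values were above the DMSO values by a margin smaller than their spread. In the main fit ZNF561 was not called, with a log2 fold change of 0.13 ± 0.089 (SE) and an adjusted p of 0.359 (edgeR's quasi-likelihood test). With a factor from the ERCC RNAs in the model it was called higher, at 0.27 with an adjusted p of 0.0179 in the same edgeR test. That fit called 796 of all tested genes higher and 526 lower. Whether it differed from ZNF562 in its change was not tested.

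ZNF426, the closest relative of ZNF266 on the arm with 67.1% identity of the proteins, was described after its values were seen. It had 27 and 39 counts with DMSO and 68 and 73 with dTAG, under the minimum of 50, or 0.272 and 0.391 against 0.679 and 0.809 CPM. The groups did not overlap. With a minimum of 10 counts its log2 fold change was 1.17, with an adjusted p of 0.05003 that did not pass (edgeR's quasi-likelihood test), and with no count filter it was 1.17 with 0.0445. In these fits 3.12% and 3.86% of all genes were called higher. ZNF560, which stands between ZNF266 and ZNF426 and has no TGACGTCA in its window, had too few counts for a test.

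**Figure D2:**
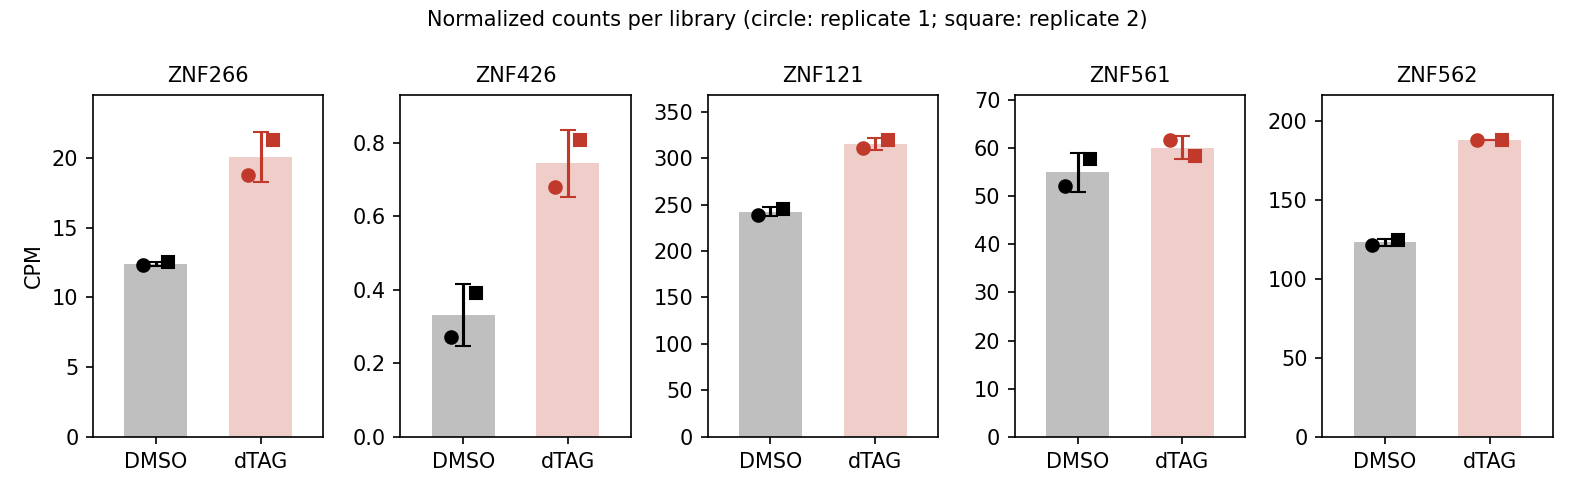
CPM in each library for the 5 genes whose promoter windows hold TGACGTCA, with DMSO in black and dTAG in red and each panel on its own linear axis from 0. Bars are means of 2 libraries and error bars are SDs; ZNF266, ZNF121 and ZNF562 were called higher, ZNF561 was not, and ZNF426 was under the count minimum.

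Of the 4 tested members with TGACGTCA, 3 were called higher, and of the 34 tested members with a window that lacked it, 0. The motif was chosen with these changes known, and its carriers lie close together in block 3, so that this split is no test. Among the 381 tested genes outside this set whose windows hold TGACGTCA, 15 (3.94%) were called higher and 12 lower, close to the 3.44% and 3.66% of all tested genes, with a median log2 fold change of 0.05. Of the genes outside this set with CGGAAG directly before TGACGTCA, 2 were tested and 0 were called higher.

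The other tested genes of block 3 were not called in the main fit. ZNF317 was called in 6 of 15 alternatives. ZNF317 had 11474 and 11960 counts with DMSO and 13599 and 12409 with dTAG, above DMSO in both libraries as CPM, with a log2 fold change of 0.21 ± 0.083 (SE) and an adjusted p of 0.108 (edgeR's quasi-likelihood test). ZNF414, a gene with 3 fingers at the edge of the block, went the other way at -0.28 ± 0.16, with 686 and 941 counts against 689 and 593, and ZNF846, ZNF558, ZNF699 and ZNF559-ZNF177 lay between -0.02 and 0.19. The value of ZNF414 rested on the DMSO libraries: without DMSO replicate 1 it was -0.49, and without DMSO replicate 2 it was -0.0433. The median over the 10 tested genes of the block was 0.16. Both dTAG libraries were above both DMSO libraries in 6 of the 10, against 28.1% of all tested genes. Of the 13 genes of the block that are not ZNF genes, which include olfactory receptors, 2 were tested, MYO1F and ADAMTS10, and 0 were called. When blocks were separated by gaps of more than 1000000 bases, blocks 2 and 3 merged, and the median over the 12 tested genes was 0.09.

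**Figure D3:**
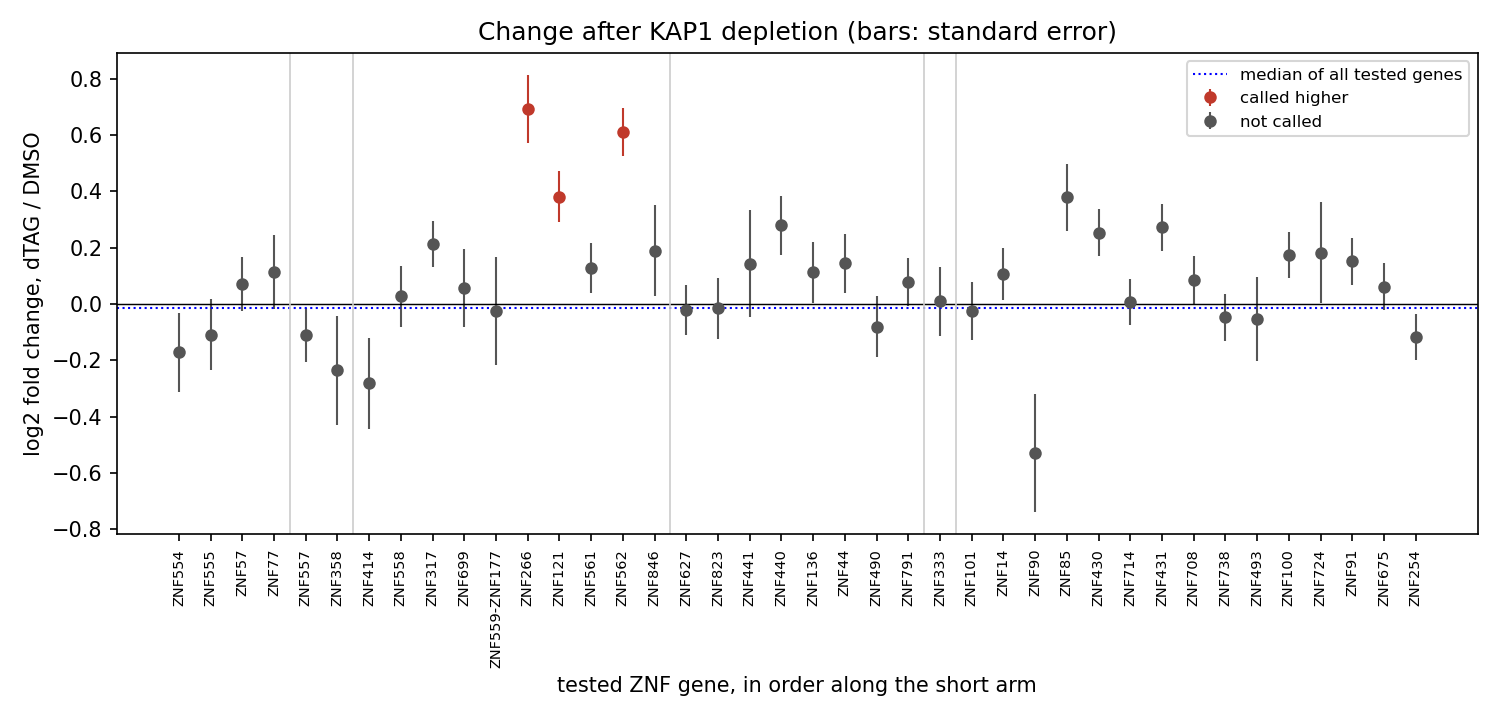
Log2 fold change, dTAG over DMSO, of the 40 tested ZNF genes in their order along the short arm, with bars of 1 SE and grey lines between blocks. The 3 called genes, in red, lie in block 3 at 0.38 to 0.69, and ZNF90 in block 6 is lowest at -0.53 without a call; the dotted line is the median of all tested genes at -0.01.

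In block 6, which holds the primate-expanded genes around ZNF91 and ZNF85, 0 of 15 tested genes were called. Over all tested genes 7.1% were called in either direction. Both dTAG libraries were above both DMSO libraries in 9 of the 15, against 28.1% of all tested genes. ZNF85, with 15 fingers, had 1347 and 1353 counts with DMSO and 1772 and 1589 with dTAG, or 13.6 and 13.6 against 17.7 and 17.6 CPM. It was close to the threshold, with a log2 fold change of 0.38 ± 0.12 (SE) and an adjusted p of 0.0551 (edgeR's quasi-likelihood test), and passed in 7 of 15 alternatives. ZNF431 and ZNF430, in the same run of transcribed genes, were at 0.27 and 0.25 with adjusted p-values of 0.0553 and 0.0665 in the same edgeR test, and DESeq2 called all 3.

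ZNF91, with 32 fingers and known for binding SVA elements, had 6291 and 6205 counts with DMSO and 6986 and 6303 with dTAG, or 63.5 and 62.2 against 69.7 and 69.8 CPM. Its groups did not overlap, but its log2 fold change of 0.15 ± 0.083 (SE) was not called, with an adjusted p of 0.249 (edgeR's quasi-likelihood test). ZNF93, known for binding LINE-1 elements, had 6 and 8 counts with DMSO and 0 and 7 with dTAG and was not tested. ZNF90 had 386 and 285 counts with DMSO and 242 and 204 with dTAG. Its log2 fold change was -0.53 ± 0.21 (SE) with an adjusted p of 0.118 (edgeR's quasi-likelihood test). In CPM the DMSO libraries, with 3.89 and 2.85, were further apart than the dTAG libraries, with 2.41 and 2.26. Without DMSO replicate 1 the log2 fold change of ZNF90 was -0.29, and without DMSO replicate 2 it was -0.74. ZNF90 was called lower in 4 of 15 alternatives.

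In blocks 1, 2, 4 and 5, 0 of 15 tested genes were called, against 7.1% of all tested genes in either direction. Block 4 had a median of 0.10, led by ZNF440 at 0.28, with an adjusted p of 0.0997 (edgeR's quasi-likelihood test). Block 1 had a median of -0.02 over 4 genes. Both genes of block 2, ZNF557 and ZNF358, had negative log2 fold changes, -0.11 and -0.24. In each, both dTAG libraries were below both DMSO libraries, as in 30.7% of all tested genes.

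Positive log2 fold changes outnumbered calls. Of the 40 tested genes, 26 had a positive log2 fold change, and the median was 0.07 against -0.01 over all tested genes. Both dTAG libraries were above both DMSO libraries in 21 genes (52.5%), below in 5 (12.5%) and overlapped in 14, while over all tested genes 28.1% were above and 30.7% below. Relative to each gene's DMSO mean, the median over the 40 genes was -0.02 and 0.02 with DMSO against 0.09 and 0.06 with dTAG. Scaling moved this value: with upper-quartile normalization the median of the 40 genes was 0.00 and that of all genes -0.09. With ERCC totals they were 0.73 and 0.63. Such scaling shifts all genes of a library alike, so that the difference, 0.09 and 0.10, could hardly change. With the trends on GC and length removed, which can change it, the difference was 0.05.

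Over all tested genes, 3.44% were called higher and 3.66% lower. Of 166 ZNF genes of the long arm, 94 were tested, with 5 called higher (5.32%), 0 lower, and a median of 0.06. Relative to each gene's DMSO mean, their median was -0.0451 and 0.0451 with DMSO against 0.0415 and 0.0668 with dTAG, so that the libraries overlapped. Of 267 ZNF genes on other chromosomes, 210 were tested, with 7 called higher (3.33%), 7 lower, and a median of -0.01. The 381 tested genes of the short arm that are not ZNF genes went the other way, with 3 called higher (0.787%), 25 lower, and a median of -0.15. GC content moved with this contrast, at a median of 55.8% in those 381 genes and 43.7% in the 40 ZNF genes. None of these differences between lists was tested.

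Across the 12612 tested genes, Spearman's rho of the log2 fold change was -0.56 with GC content over the gene and 0.42 with gene length, and across the 40 ZNF genes it was -0.34 and 0.16. Points share their libraries, and genes are not independent replicates. The highest GC contents were those of ZNF414 with 62.7% and ZNF358 with 60.98%, both with a negative log2 fold change, while ZNF266, ZNF562 and ZNF121 had 45.0%, 43.1% and 42.0%. With the trend of each library on GC and length removed, the median of the 40 genes was 0.05 against 0.00 over all genes, and ZNF266, ZNF562 and ZNF121 kept log2 fold changes of 0.70, 0.56 and 0.33.

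**Figure D4:**
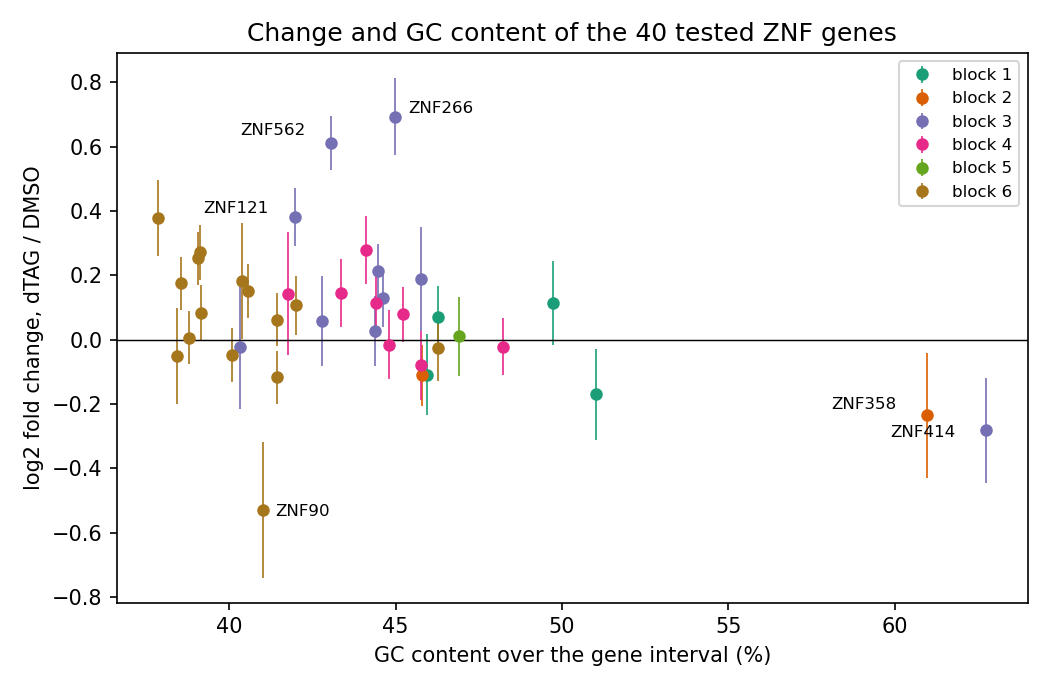
Log2 fold change, dTAG over DMSO, with 1 SE, against GC content in percent over the gene interval for the 40 tested ZNF genes, colored by block. ZNF414 and ZNF358, with over 60% GC, lie below 0, and the called genes ZNF266, ZNF562 and ZNF121 lie at 42.0% to 45.0% GC.

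Genes were called with and without a KRAB match. A pattern for the KRAB A box matched 56 of 85 translated genes; older or divergent boxes can fail it. Of 27 tested genes with a match 2 were called higher (7.41%) and the median was 0.08. Of 13 without, 1 was called higher (7.69%) and the median was 0.01. Over all tested genes 3.44% were called higher. The pattern matched 5 of the 27 genes of block 4 and 32 of the 37 of block 6, so that this split goes partly with block. The number of fingers had a median of 12 and reached 39, and its Spearman's rho with the log2 fold change over the 40 genes was 0.07.

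Of 28 genes of the KAP1 silencing pathway, all 28 were tested, with 1 called higher and 3 lower, or 14.3% against the 7.1% of all genes. TRIM28 itself, whose depletion was at the level of the protein, had 6107 and 6959 counts with DMSO and 5357 and 4321 with dTAG, a log2 fold change of -0.37 with an adjusted p of 0.0189 (edgeR's quasi-likelihood test). ZNF274, the zinc finger protein known to bring KAP1 to the 3' ends of ZNF genes, rose from 1435 and 1602 counts to 2208 and 2044, at 0.55 with an adjusted p of 0.00616. MORC2, an ATPase of HUSH-dependent silencing, fell by 0.45 on the log2 scale, and ATF7IP, a partner of SETDB1, fell by 0.33. SETDB1 was at 0.04 and was not called.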

How the data were processed

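The authors deposited unnormalized counts, which they made from hg38 alignments with Trim Galore 0.6.4, STAR and featureCounts (Subread 1.6.3) over whole protein-coding genes and 92 ERCC RNAs. How strand, overlapping genes and multi-mapped reads were treated is not given in the sources used here, and RNA from overlapping or antisense genes cannot be told apart. The study's methods call the 2 libraries per condition biological replicates, and p-values measure the spread between them.

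Models were fitted with edgeR 4.0.16 and limma 3.58.1 under R 4.3.3, using TMM factors, at least 50 counts in 4 libraries, 1 term for treatment, a two-sided quasi-likelihood F test and Benjamini-Hochberg adjustment over 12612 genes, calling genes at an adjusted p under 0.05. The script was tested on simulated data. CPM used the TMM-scaled sizes, and SE is the size of the log2 fold change over the square root of F. Gene features came from GENCODE and hg38 and promoters from RefSeq, whose 1917 windows on chromosome 19 equal hg38. Fingers and KRAB boxes were counted in translated coding sequences, in place of RefSeq proteins. Protein identity is the share of identical residues in a global alignment, over the length of the shorter protein. The genes described and the gene lists were chosen with earlier results of these data known. Named genes were the called ones, the 3 highest and lowest levels, the 3 largest changes without a call, ZNF91 and ZNF93, and ZNF266, ZNF562 and ZNF90, which the study lists from these samples, so that they are no independent choice. Others stand beside them as neighbors or examples, chosen after their values were seen. The alternatives were DESeq2 1.42.0, upper-quartile and ERCC scaling, the likelihood ratio test, other count minimums, a replicate block, removal of GC and length trends, subsets of the genes, and leaving out each library.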

Additional observations from a re-analysis of the deposited data

How the results depend on the processing

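The 3 genes called higher and 0 lower, with a median log2 fold change of 0.07, came from 2 libraries per condition, which limits the precision of each call. Under DESeq2, the likelihood ratio test and no count filter, 6 were called higher and 0 lower. Over all tested genes these called 691, 729 and 673 higher and 582, 864 and 744 lower, in this order. With ERCC totals as library sizes, 0 were called and the median was 0.73; ERCC counts were 14798 and 25165 with DMSO and 13870 and 9551 with dTAG. With the ERCC factor, 5 were called higher, 1 lower (ZNF90) and the median was 0.11, beside 796 higher and 526 lower over all tested genes. Removing the length trend gave 7 higher, beside 635 higher and 418 lower over all tested genes. Removing GC and length trends gave 6 higher, 2 lower (ZNF90 and ZNF254) and a median of 0.0455. Over all tested genes that fit called 1341 higher and 939 lower. The median was 0.000597 with upper-quartile normalization and 0.11 over the 32 genes that overlap no other gene. Leaving out 1 library at a time gave 1 to 9 called higher, 0 to 2 lower and medians of 0.05 to 0.10, with the lone library assumed to vary like the other condition. Over all tested genes, 434 were called higher and 461 lower, against 255 and 869 with upper-quartile normalization, 0 and 0 with ERCC totals, 162 and 178 with the replicate block, 2797 and 2692 without DMSO replicate 1 and 48 and 20 without dTAG replicate 2. The cause of these changes was not tested.

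Same-numbered libraries were not paired, since their deviations from the group means had a correlation of -0.25 across genes. The replicate block gave 2 higher, 0 lower and a median of 0.08. The block with the numbers crossed, added after the data were seen, gave 8 higher and 1 lower. Over all 12612 tested genes the crossed block called 1587 higher and 1603 lower. ZNF562 was called in 14 of 15 alternatives, ZNF266 in 13 and ZNF121 in 11.

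Some uncalled genes changed sign. ERCC totals gave 0.62 for ZNF738, 0.58 for ZNF559-ZNF177, 0.0568 for ZNF90 and 0.42 for ZNF414, the ERCC factor gave 0.0222 for ZNF738 and 0.0917 for ZNF414, and removal of trends gave 0.0152 (length) for ZNF738 and 0.0461 (GC and length) for ZNF414. Leaving out 1 library at a time gave -0.10 to 0.00796 for ZNF738, positive without DMSO replicate 2, and -0.21 to 0.18 for ZNF559-ZNF177, positive without DMSO replicate 1 and without dTAG replicate 1.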
